A study of Mus musculus with 2 samples.

Results

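The genes described here are 9 components of canonical Wnt signaling, chosen by name: the DNA-binding factors Lef1, Tcf7, Tcf7l1 and Tcf7l2 and the feedback genes Axin2, Nkd1, Rnf43, Znrf3 and Lgr5. All 9 of them are among the 31053 genes of both count matrices. They were followed in 2 single-cell RNA-seq libraries of the intestinal lamina propria of 11-week-old C57BL/6 mice. The ApcMin library came from ApcMin/+;Lef1 +/+ mice, and the VApcMinL library from ApcMin/+;Lef1 fl/fl;Villin-Cre mice. Both genotypes carry the ApcMin allele, which gives rise to intestinal adenomas. Villin-Cre acts in the intestinal epithelium, so Lef1 is floxed in every cell of VApcMinL mice but is meant to be deleted in epithelial cells. The number of mice behind each library was not given in the sources used here. Each genotype is 1 library, so differences have no replicate check and no test was run. The intervals given are exact, at the 95% level, and reflect counting error alone.

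In the canonical Wnt pathway, a destruction complex that contains Apc and Axin proteins keeps β-catenin low, and Wnt ligands or loss of Apc let β-catenin accumulate. β-Catenin then binds Lef/Tcf factors on DNA. Axin2 and Nkd1 dampen the signal inside the cell, Rnf43 and Znrf3 are ubiquitin ligases that remove Frizzled receptors from the surface, and Lgr5 is the R-spondin receptor that marks intestinal stem cells. In lymphocytes, Tcf7 and Lef1 are best known for their roles in T cell development and in naive and memory T cells.

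The barcodes used had at least 3000 unique molecular identifiers (UMIs, 1 per captured RNA molecule) and at most 20% mitochondrial UMIs, which left 6599 ApcMin and 6569 VApcMinL cells. The median depth was 10849 and 9111 UMIs, and 18 barcodes were shared by the libraries. Free RNA, estimated from genes that a compartment should lack, made up between 3.24% and 8.49% of its UMIs. Cells were assigned to compartments through clusters named by marker genes. The lymphoid compartment held 1251 ApcMin and 983 VApcMinL cells, the stromal 3439 and 3772, the endothelial 162 and 660, and the epithelial 49 and 346. The sort kept cells without Epcam, CD45 and Ter119 on the surface, yet lymphoid cells had 501 and 369 CPM (UMIs of a gene per 1000000 UMIs of the summed cells) of Ptprc, the CD45 gene, and epithelial cells 2345 and 2202 CPM of Epcam. Shares of cells with a UMI were computed after each cell was thinned to 3000 UMIs, unless cell counts are given.

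Lef1 lies at chr3:131110471-131224356 on GRCm38, Tcf7 at chr11:52252371-52283014, Tcf7l1 at chr6:72626378-72789254 and Tcf7l2 at chr19:55741820-55933654. Axin2 lies at chr11:108920349-108950783 and Lgr5 at chr10:115450311-115587780. RefSeq promoter entries on GRCm38.p6 were found for 7 of the 9 genes, with 13 windows of 250 bases before a transcript start. They were searched on both strands for CTTTGA and CTTTGT, the core letters that Lef/Tcf factors are known to bind. Of 32851 mouse promoters, 13.8% held CTTTGA, 16.5% held CTTTGT and 27.6% held either. Matches were found in 3 of the 13 windows, 1 each at Tcf7l1 and Tcf7l2 and 3 in the window of an internal Lef1 start. Only 0.776% of promoters held 3 or more matches. The windows at an upstream and the internal Lef1 start and at Axin2 are shown because Lef1 is the floxed gene, with a window of 3 matches, and Axin2 is a widely used Wnt target set beside it. 3′ UMIs do not tell Lef1 transcripts of different starts apart. Capitals mark the matches, read on either strand, and each sequence runs from its 5′ to its 3′ end on the plus strand.
Lef1, upstream start, chr3:131110047-131110296: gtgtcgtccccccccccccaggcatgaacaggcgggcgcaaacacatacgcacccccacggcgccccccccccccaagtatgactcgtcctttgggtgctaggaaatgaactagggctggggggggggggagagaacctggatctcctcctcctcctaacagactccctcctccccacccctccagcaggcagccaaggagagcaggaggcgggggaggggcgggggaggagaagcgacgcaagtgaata
Lef1, internal start, chr3:131156044-131156293: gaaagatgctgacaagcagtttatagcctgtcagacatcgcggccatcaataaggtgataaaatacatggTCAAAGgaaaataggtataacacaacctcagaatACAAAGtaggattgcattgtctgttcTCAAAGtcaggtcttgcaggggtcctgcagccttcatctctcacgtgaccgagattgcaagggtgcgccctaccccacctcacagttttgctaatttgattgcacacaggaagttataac
Axin2, chr11:108920099-108920348: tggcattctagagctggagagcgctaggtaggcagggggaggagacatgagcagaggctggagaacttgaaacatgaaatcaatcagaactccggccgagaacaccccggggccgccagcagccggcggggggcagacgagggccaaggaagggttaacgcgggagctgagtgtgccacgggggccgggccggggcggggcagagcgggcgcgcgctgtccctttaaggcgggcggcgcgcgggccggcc
The upstream Lef1 and the Axin2 windows held neither motif, and a match is a description of letters, not of binding.

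Each of the 4 factors had its own pattern over the tissue. Among the classes of the 4 compartments, Tcf7 was highest in T cells or innate lymphoid cells (ILCs), and Lef1 in T cells or ILCs, with B cells next. Tcf7l1 was found in stroma and endothelium and was low elsewhere, while Tcf7l2 was found in stroma, endothelium and epithelium.

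**Figure D1:**
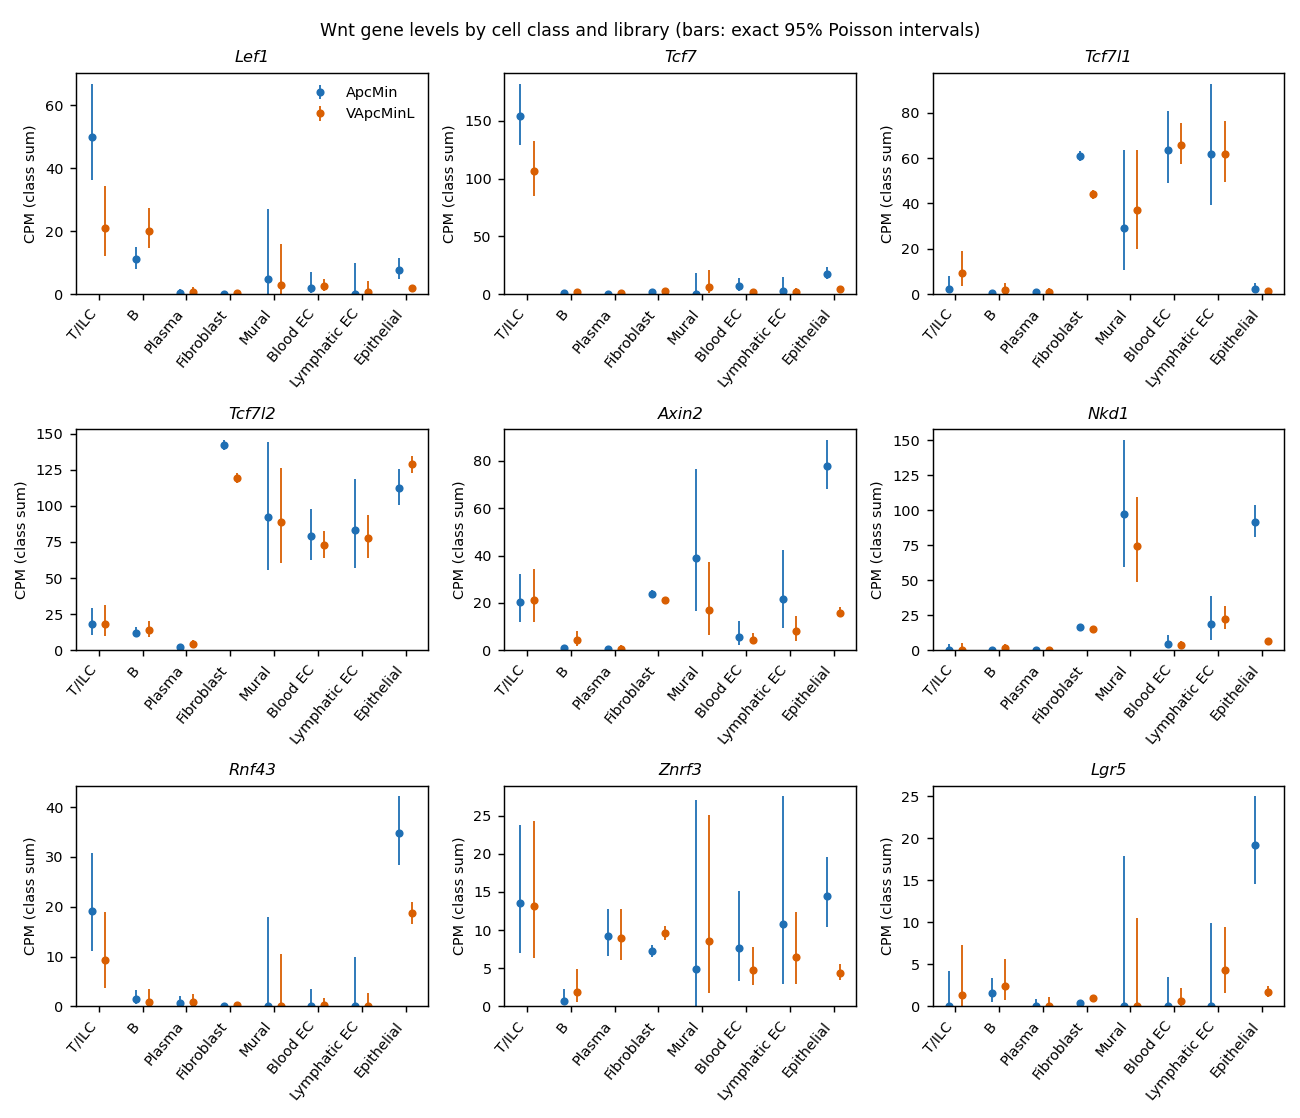
CPM of each gene (y axis, UMIs of the gene scaled to all UMIs of the class) in 8 cell classes (x axis) of the ApcMin (blue) and VApcMinL (orange) libraries, with bars for exact 95% Poisson intervals. Tcf7 stood at 154 and 107 CPM in T cells or ILCs and Nkd1 at 97.3 and 74.5 CPM in mural cells, while epithelial Axin2, Nkd1 and Lgr5 were higher in ApcMin.

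Lef1, the gene floxed in VApcMinL mice, had 89 UMIs in 39 of 1251 lymphoid ApcMin cells and 60 UMIs in 33 of 983 lymphoid VApcMinL cells, or 10.1 and 9.55 CPM. The VApcMinL over ApcMin ratio was 0.948 (0.671 to 1.33). Which Lef1 exons are floxed was not given in the sources used here, so UMIs from the 3′ end do not check the deletion. In the order of Lef1 levels, lymphoid cells came first in both libraries. They were not separated from epithelial cells in ApcMin (1.33-fold, 0.828 to 2.23) but stood 4.91-fold above them in VApcMinL (3.11 to 7.94).

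Within the lymphoid compartment, Lef1 was at 49.8 CPM in the 116 T cells or ILCs of ApcMin (44 UMIs) and at 21.1 CPM in the 85 of VApcMinL (16 UMIs). B cells stood at 11.2 CPM in ApcMin (43 UMIs in 21 of 661 cells) and 20.2 CPM in VApcMinL (42 UMIs in 20 of 355 cells). The VApcMinL over ApcMin ratios were 0.424 (0.223 to 0.767) and 1.81 (1.15 to 2.83). T cells or ILCs were 4.46-fold above B cells in ApcMin (2.86 to 6.95) and 1.05-fold in VApcMinL (0.549 to 1.90). Few cells carried these sums, since 5 cells held 30 of the 44 UMIs in T cells or ILCs of ApcMin. At equal depth the share of T cells or ILCs with Lef1 was 8.62% (4.21 to 15.3) and 9.41% (4.15 to 17.7), so shares were close where levels were not. Plasma cells had 2 Lef1 UMIs in each library. Myeloid cells had 0 in 287 and 220 cells, or up to 0.730 and 1.25 CPM at a bound of 3 counts. Erythroid cells, which should lack Lef1, had a UMI in 0 of 1366 and 1 of 366 cells.

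Tcf7, which encodes TCF-1, was nearly confined to T cells or ILCs among lymphoid cells. They stood at 154 CPM in ApcMin (136 UMIs) and 107 CPM in VApcMinL (81 UMIs), a ratio of 0.695 (0.521 to 0.922). B cells had 2 and 3 Tcf7 UMIs, and T cells or ILCs were above them 296-fold (80.5 to 2471) and 74.1-fold (24.5 to 367). The share of T cells or ILCs with Tcf7 was 35.3% (26.7 to 44.8) and 25.9% (17.0 to 36.5) at equal depth, intervals that overlap, against 0.0732% and 0% in erythroid cells.

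Several genes were found in like shares of T cells or ILCs with and without Tcf7, as described with no test and for genes picked after their values were seen. Cd3e was in 45 of 61 Tcf7-positive and 42 of 55 Tcf7-negative cells of ApcMin and in 23 of 37 and 31 of 48 of VApcMinL, and Il7r in 47 of 61 and 42 of 55 and in 29 of 37 and 38 of 48. Foxp3 and Il1rl1 had lower shares among Tcf7-positive cells of both libraries. Foxp3, the factor of regulatory T cells, was in 0 of 61 Tcf7-positive and 13 of 55 Tcf7-negative T cells or ILCs of ApcMin, and in 0 of 37 and 4 of 48 of VApcMinL. After thinning, Foxp3 was left in 0 and 11 cells and in 0 and 3. Il1rl1, the receptor for interleukin-33, was in 2 of 61 and 12 of 55 cells, and in 1 of 37 and 6 of 48. Nkg7, a gene of cytotoxic granules, did not keep 1 direction: 31 of 61 against 26 of 55 in ApcMin, and 11 of 37 against 32 of 48 in VApcMinL. Median depths were 6373 and 6483 UMIs in ApcMin and 7057 and 6513.5 in VApcMinL.

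Lef1-positive and Lef1-negative T cells or ILCs were compared for receptor genes, again with no test. S1pr1, a receptor for egress from lymphoid tissue, was in 7 of 16 Lef1-positive and 12 of 100 Lef1-negative cells of ApcMin, and in 2 of 11 and 4 of 74 of VApcMinL. Ccr7, a chemokine receptor of naive and central memory T cells, was in 6 of 16 and 8 of 100, and in 1 of 11 and 4 of 74. Il7r, the interleukin-7 receptor, went the other way in both libraries, with 9 of 16 and 80 of 100 cells in ApcMin and 5 of 11 and 62 of 74 in VApcMinL. The Lef1-positive cells had medians of 6501 UMIs against 6465 in ApcMin and 9553 against 6428.5 in VApcMinL. Among B cells, several B cell genes had lower shares in Lef1-positive cells, with no test. Ms4a1, which encodes CD20, was in 15 of 21 Lef1-positive and 587 of 640 Lef1-negative cells of ApcMin and in 12 of 20 and 301 of 335 of VApcMinL. Ighd, the constant region of IgD, was in 15 of 21 and 567 of 640 and in 14 of 20 and 300 of 335. Cr2, a complement receptor, was in 6 of 21 against 312 of 640 in ApcMin and 3 of 20 against 152 of 335 in VApcMinL, at medians of 5897 against 4859.5 and 4373 against 4627 UMIs. None of the 21 and 20 Lef1-positive B cells had a UMI of Cd3e, a T cell gene.

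**Figure D2:**
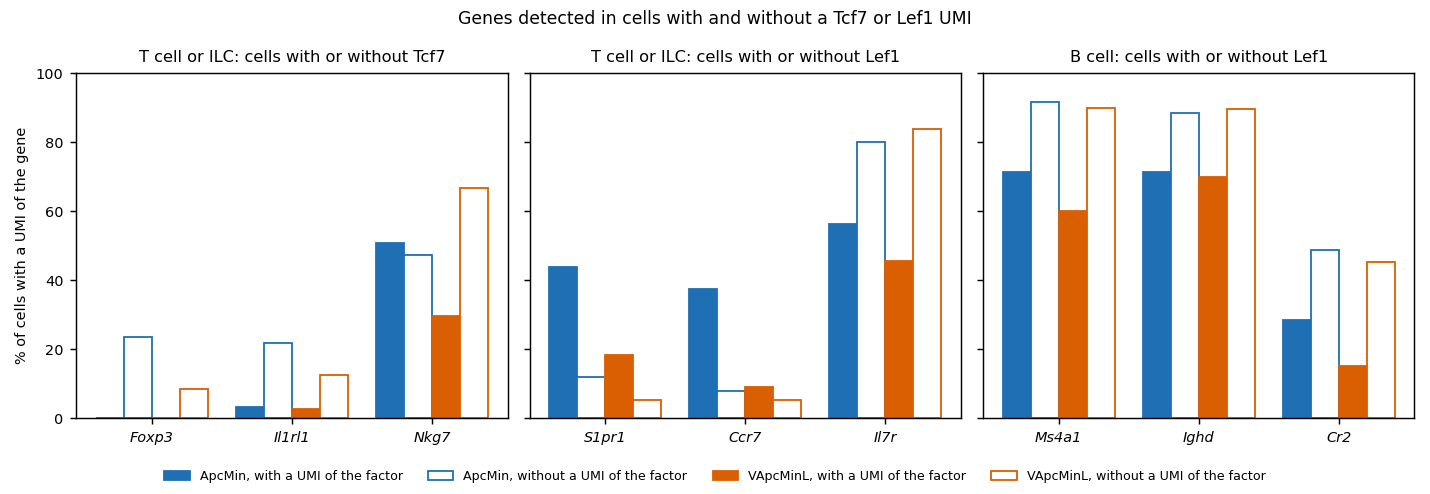
Percent of cells with a UMI of the named gene (y axis) among T cells or ILCs split by Tcf7 or by Lef1 and among B cells split by Lef1, with filled bars for cells with the factor and open bars for cells without it, in ApcMin (blue) and VApcMinL (orange). The percents are without thinning to equal depth. Foxp3 was at 0 in Tcf7-positive cells of both libraries, and Ms4a1, Ighd and Cr2 were lower in Lef1-positive B cells of both.

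Among the feedback genes, T cells or ILCs had Axin2 at 20.4 and 21.1 CPM (18 and 16 UMIs), Rnf43 at 19.2 and 9.24 CPM (17 and 7 UMIs) and Znrf3 at 13.6 and 13.2 CPM (12 and 10 UMIs). Nkd1 had 0 UMIs there in both libraries, or up to 3.40 and 3.96 CPM at a bound of 3 counts, and Lgr5 had 0 and 1. Axin2 in T cells or ILCs was near its fibroblast level of 23.9 and 21.1 CPM, while B cells had 0.779 and 4.33 CPM. Znrf3 had a second lymphoid home in plasma cells, at 9.26 CPM in ApcMin (38 UMIs) and 8.99 CPM in VApcMinL (31 UMIs). B cells were at 0.0841 (0.0166 to 0.265) and 0.214 (0.0549 to 0.605) times the plasma cell level. Prdm1, the plasma cell factor, was in 11 of 27 Znrf3-positive and 32 of 447 Znrf3-negative plasma cells of ApcMin and in 6 of 24 and 36 of 519 of VApcMinL. The Znrf3-positive plasma cells were deeper, at median 11191 against 7154 and 6543.5 against 4764 UMIs.

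Between the libraries, 1 of the 7 genes with at least 20 lymphoid UMIs was past 2-fold, against 10.5% of all 11441 lymphoid genes so measured (7.88% higher and 2.58% lower in VApcMinL). This was Tcf7l1, with 6 UMIs in ApcMin and 14 in VApcMinL, a ratio of 3.28 (1.18 to 10.4). With cells classed by their own markers, its log2 ratio was -0.19. The summed fibroblast list, at 1685 and 6637 CPM in T cells or ILCs with 0 and 1 of its 14 genes at 0, moved the same way, and its part was not tested. After the profile of empty droplets was subtracted, 0 and 2.47 Tcf7l1 UMIs were left. The other 6 genes had ratios from 0.649 for Rnf43 (26 and 12 UMIs) to 1.65 for Axin2 (23 and 27 UMIs), and all 6 intervals held 1. Over all lymphoid genes the interval left out 1 for 32.6%, against 1 of the 7. The equal-depth shares had intervals apart for 14.3% of all lymphoid genes, against 0 of the 7.

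In the stroma, Tcf7l1 and Tcf7l2 were widely found and Lef1 was close to absent. Tcf7l2 had 6752 UMIs in ApcMin and 5035 in VApcMinL, or 142 (139 to 145) and 119 (116 to 122) CPM, a ratio of 0.837 (0.807 to 0.868). Tcf7l1, best known as a repressor of Wnt targets, had 2880 and 1862 UMIs, or 60.6 and 44.0 CPM, a ratio of 0.726 (0.684 to 0.770). Both were lower in VApcMinL also by share of cells: 34.8% against 30.1% for Tcf7l2 and 16.6% against 12.4% for Tcf7l1 at equal depth. Tcf7 was low, at 2.06 and 2.95 CPM (98 and 125 UMIs), a ratio of 1.43 (1.09 to 1.89).

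Axin2 was at 24.0 and 21.1 CPM in stromal cells (1141 and 894 UMIs), a ratio of 0.880 (0.805 to 0.961), and Nkd1 at 16.8 and 16.0 CPM (797 and 676 UMIs), a ratio of 0.952 (0.858 to 1.06). Znrf3 was at 7.19 and 9.59 CPM (342 and 406 UMIs), a ratio of 1.33 (1.15 to 1.54). Its paralog Rnf43 had only 7 and 9 UMIs in all stromal cells. Of the 8 genes with at least 20 stromal UMIs, 2 were past 2-fold, both higher in VApcMinL, against 10.2% of 16009 genes past 2-fold and 8.17% in that direction (2.06% were lower). These were Lef1, with 5 and 16 UMIs, and Lgr5, with 22 and 44 UMIs, at ratios of 3.59 (1.26 to 12.5) and 2.25 (1.32 to 3.93). For 7 of the 8 the interval of the ratio left out 1, but so it did for 54.7% of all stromal genes. Equal-depth shares with intervals that did not overlap were seen for Tcf7l1, Tcf7l2 and Znrf3, against 17.9% of all stromal genes.

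The stromal Lef1 and Lgr5 sums were higher in VApcMinL, and so was the sum of an epithelial gene list in fibroblasts. In epithelial cells themselves both genes were lower in VApcMinL, Lef1 at 7.56 and 1.94 CPM and Lgr5 at 19.3 and 1.67 CPM. The 19-gene epithelial list summed to 28.2 CPM in fibroblasts of ApcMin and 279 CPM in those of VApcMinL, with 0 genes at 0 in either, and Epcam was at 1.24 and 10.4 CPM in stromal cells. Empty droplets had 6.04 and 20.7 CPM of Lef1, and 1.93 and 1.26 CPM of Lgr5. After subtraction of the empty-droplet profile, 0 Lef1 UMIs were left in either library, and 18.9 and 41.8 Lgr5 UMIs. The part of epithelial RNA in the Lgr5 difference was not tested.

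**Figure D3:**
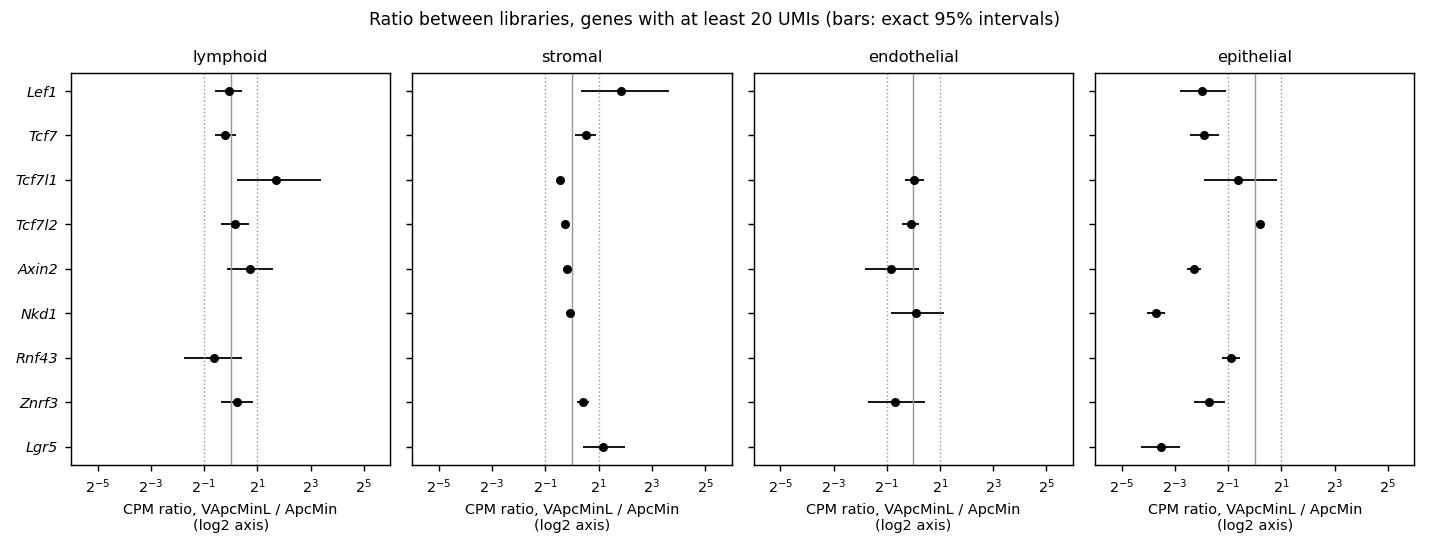
VApcMinL over ApcMin ratio of CPM (x axis, log2 scale) for each gene (y axis) with at least 20 UMIs in a compartment, with exact 95% intervals; the solid line marks 1 and the dotted lines 2-fold. The epithelial ratios of Lef1, Tcf7, Axin2, Nkd1, Znrf3 and Lgr5 lay below the lower dotted line, while no endothelial ratio passed a dotted line.

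Within the stroma, mural cells (smooth muscle and pericytes) stood out for Nkd1. It was at 97.3 CPM in 35 mural ApcMin cells (20 UMIs) and 74.5 CPM in 49 mural VApcMinL cells (26 UMIs), which was 5.93-fold (3.60 to 9.22) and 4.81-fold (3.12 to 7.12) its fibroblast level. Axin2 did not separate mural cells from fibroblasts in either library, at 1.63-fold (0.700 to 3.21) and 0.813-fold (0.298 to 1.78).

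A finer clustering, added after the data were seen, gave 9 stromal states, called here by their leading gene and compared only as a description. Tcf7l1 was highest in the Penk and Pi16 states, at 74.3 and 68.2 CPM in ApcMin and 57.2 and 54.9 CPM in VApcMinL. It was lowest in the Mmp10 state of ApcMin (18.7 CPM) and the Bmp5 state of VApcMinL (20.3 CPM). Tcf7 ran the other way, with its lowest level in the Penk state (4 and 0 UMIs) against 9.34 and 9.12 CPM in the Mmp10 state. Across the 9 states Tcf7l2 ranged from 73.1 to 189 CPM in ApcMin and from 82.6 to 161 CPM in VApcMinL. The Penk state held 886 ApcMin and 713 VApcMinL cells and the Pi16 state 1197 and 802, beside 3439 and 3772 stromal cells. The part of this mix in the lower stromal Tcf7l1 and Tcf7l2 of VApcMinL was not tested.

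The Wif1 state, led by the gene of a secreted Wnt inhibitor, had 30 ApcMin and 131 VApcMinL cells. Its Nkd1 was at 17.6 CPM in ApcMin (8 UMIs) and 57.6 CPM in VApcMinL (105 UMIs), and its Axin2 at 33.0 CPM (15 UMIs) and 43.9 CPM (80 UMIs). Against the other stromal cells of the same library, Nkd1 was 1.05-fold (0.450 to 2.07) in ApcMin and 4.09-fold (3.29 to 5.04) in VApcMinL. Axin2 was 1.37-fold (0.764 to 2.27) and 2.17-fold (1.70 to 2.73). Lgr5 had 0 UMIs in the state in ApcMin and 9 in VApcMinL, 5.66-fold (2.39 to 12.0) the level in other stromal cells. Wif1 itself had 4 UMIs in the state in ApcMin and 1718 in VApcMinL, of 14 and 1775 in all stromal cells. The state is thus not shown to hold the same cells in both libraries.

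**Figure D4:**
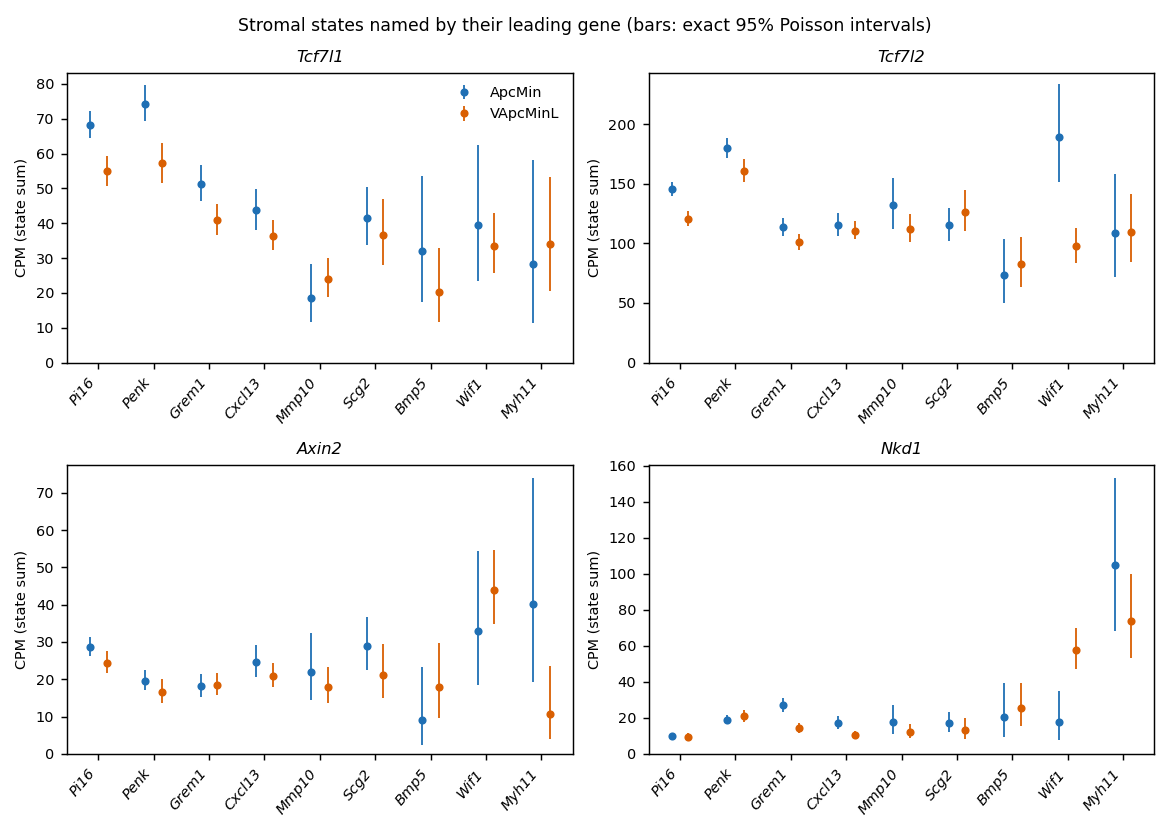
CPM (y axis) of Tcf7l1, Tcf7l2, Axin2 and Nkd1 in 9 stromal states named by their leading gene (x axis), in ApcMin (blue) and VApcMinL (orange), with exact 95% Poisson intervals. Nkd1 peaked in the Myh11 state at 105 and 73.8 CPM, and in the Wif1 state it was at 17.6 and 57.6 CPM.

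Endothelial cells had Tcf7l1 and Tcf7l2 but little Lef1 or Tcf7. Tcf7l1 was at 63.0 and 64.7 CPM (89 and 304 UMIs), a ratio of 1.03 (0.808 to 1.32), and Tcf7l2 at 80.0 and 74.3 CPM (113 and 349 UMIs), a ratio of 0.929 (0.749 to 1.16). Lef1 had 2 and 9 UMIs and Tcf7 had 8 and 7. In the order of Tcf7l1 levels, endothelial cells came first in both libraries, not apart from stroma in ApcMin (1.04-fold, 0.833 to 1.28) and 1.47-fold above it in VApcMinL (1.30 to 1.66).

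Nkd1 separated the endothelial classes, with lymphatic cells at 18.8 and 22.5 CPM (7 and 31 UMIs) and blood endothelial cells at 4.81 and 3.62 CPM (5 and 12 UMIs). Lymphatic cells were 3.92-fold (1.07 to 15.7) and 6.22-fold (3.11 to 13.3) higher. Axin2 was 3.73-fold (1.14 to 13.0) higher in lymphatic cells of ApcMin and 1.77-fold (0.734 to 4.12) in those of VApcMinL. Between libraries, 0 of the 5 genes with at least 20 endothelial UMIs was past 2-fold, against 8.62% of 11328 genes (5.12% higher and 3.5% lower). All 5 ratio intervals held 1, as against 20.8% of all endothelial genes whose interval left it out, and the shares of 0 of the 5 were apart, against 2.01%. Fibroblast genes were higher in blood endothelial cells of ApcMin, at 7585 and 2454 CPM for the summed list, with 0 of 14 genes at 0 in either library.

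In epithelial cells, 6 of the 9 genes were past 2-fold, each lower in VApcMinL, against 25.3% of 12001 epithelial genes past 2-fold, 20.5% lower and 4.85% higher. The interval left out 1 for 8 of the 9, against 55.9% of all. The median log2 ratio of the 9 was -1.90, against -0.32 over all epithelial genes. The epithelial cells were few in ApcMin, and single deep cells weighed heavily on the sums. Over all compartments, 9 pairs of gene and compartment were past 2-fold, 5 with 1% of cells trimmed at either end of the detected genes and 0 at an equal depth of 3000 UMIs. Under the trim, the epithelial log2 ratio of Axin2 was -1.76. After thinning, epithelial Axin2 had 8 and 11 UMIs left, under the minimum of 20 for a call, and its log2 ratio was -2.36.

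Of the factors, Lef1 had 22 UMIs in 4 of 49 ApcMin cells and 29 UMIs in 10 of 346 VApcMinL cells, or 7.56 and 1.94 CPM, a ratio of 0.257 (0.143 to 0.469). Tcf7 was at 17.5 and 4.69 CPM (51 and 70 UMIs), a ratio of 0.267 (0.184 to 0.392). Without cells over 100000 UMIs, 6 in ApcMin and 4 in VApcMinL, the log2 ratio of Tcf7 was 0.18. Tcf7l2 did not follow them, at 112 and 129 CPM (327 and 1920 UMIs), a ratio of 1.14 (1.02 to 1.29). Tcf7l1 had 7 and 23 UMIs, a ratio of 0.640 (0.266 to 1.77).

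The feedback genes were lower in VApcMinL to different degrees. Nkd1 was at 91.8 and 6.97 CPM (267 and 104 UMIs), a ratio of 0.0759 (0.0599 to 0.0956). Lgr5 was at 19.3 and 1.67 CPM (56 and 25 UMIs), a ratio of 0.0870 (0.0520 to 0.142), and Axin2 at 78.0 and 15.9 CPM (227 and 238 UMIs), a ratio of 0.204 (0.170 to 0.246). The ubiquitin ligase genes had ratios nearer to 1, Znrf3 of 0.306 (0.205 to 0.462) and Rnf43, at 34.7 and 18.7 CPM, of 0.538 (0.427 to 0.683). Under the trim, the log2 ratio of Znrf3 was 1.15. In shares of cells at equal depth, no gene of the 9 was apart between the libraries, against 2.24% of all epithelial genes. Axin2 had shares of 10.2% (3.40 to 22.2) and 2.89% (1.39 to 5.25).

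Much of these sums came from a small set of cells with 3 or more UMIs of Notum, called Notum-rich here. Notum encodes a secreted Wnt-inactivating enzyme and is itself a Wnt target. A limit of 3 Notum UMIs, set after the values were seen, picked 5 ApcMin and 10 VApcMinL epithelial cells. They held 33.0% and 8.76% of all epithelial UMIs but 95.5% and 82.8% of those of Lef1, 95.1% and 94.2% of Nkd1, 98.2% and 72.0% of Lgr5, 90.2% and 78.6% of Tcf7 and 78.0% and 56.7% of Axin2. Rnf43 was more widely spread, with 68.3% and 30.5%, and Tcf7l2 was not concentrated there, with 16.8% and 7.29%. Since these cells were chosen by a Wnt target, the shares are a description. The limit was not scaled to depth, so deep cells pass it more easily. In ApcMin 1 cell of the set had 11 Notum UMIs of 410474, and in VApcMinL 1 had 3 of 354549.

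The set was picked by Notum, which was at 137 and 77.3 CPM in it, so its cells are not matched between libraries. The values inside it are a description. Inside this set, Lef1 was not separated between the libraries. Lef1 was found in 3 of the 5 ApcMin cells, with 5, 10 and 6 UMIs, and in 5 of the 10 VApcMinL cells, with 6, 4, 2, 5 and 7 UMIs. The levels were 21.9 and 18.4 CPM, a ratio of 0.838 (0.447 to 1.58). Tcf7 was at 48.0 and 42.1 CPM, a ratio of 0.877 (0.582 to 1.33), and Rnf43 at 0.903 (0.650 to 1.26) of its ApcMin level. Axin2 was at 185 and 103 CPM, a ratio of 0.559 (0.444 to 0.704), and 113 of its 177 UMIs in ApcMin came from 1 cell. Nkd1 and Lgr5 were at 265 and 75.0 CPM and at 57.4 and 13.8 CPM, with ratios of 0.283 (0.222 to 0.358) and 0.240 (0.133 to 0.415). Of the 254 Nkd1 UMIs in the ApcMin cells of the set, 174 came from that same cell, and of its 55 Lgr5 UMIs, 24 came from another. Tcf7l2 was higher in VApcMinL, at 57.4 and 107 CPM, a ratio of 1.87 (1.36 to 2.60). The cells had between 25994 and 410474 UMIs, and their Prox1 sums, a gene of colorectal adenomas, were 223 and 133 UMIs.

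Outside this set, Lef1 was nearly absent from the epithelium of both libraries, with 1 UMI in 44 ApcMin cells and 5 in 336 VApcMinL cells. Lgr5 had 1 and 7 UMIs. Nkd1 had 13 and 6 UMIs, in 3 and 4 cells, at a ratio of 0.0661 (0.0206 to 0.186). The Nkd1 counts are under the minimum of 20 for a call. Axin2 was lower in VApcMinL, at 25.6 and 7.56 CPM, a ratio of 0.295 (0.208 to 0.422), and Tcf7l2 was at 139 and 131 CPM, a ratio of 0.937 (0.824 to 1.07). The remaining cells were not alike in both libraries. Mki67, Sox9 and Smoc2 were higher in ApcMin, at 43.6 and 5.36, 56.4 and 24.4, and 40.0 and 13.7 CPM. The part of this in the Axin2 and Nkd1 ratios was not tested. The ratios of Lef1 and Lgr5 outside the set were 0.716 (0.0801 to 33.9) and 1.002 (0.129 to 45.2). With UMIs under the minimum of 20 for a call, they cannot show a difference or its absence. In the compartment sums, a lower share of Notum-rich cells and less RNA per cell cannot be told apart.

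**Figure D5:**
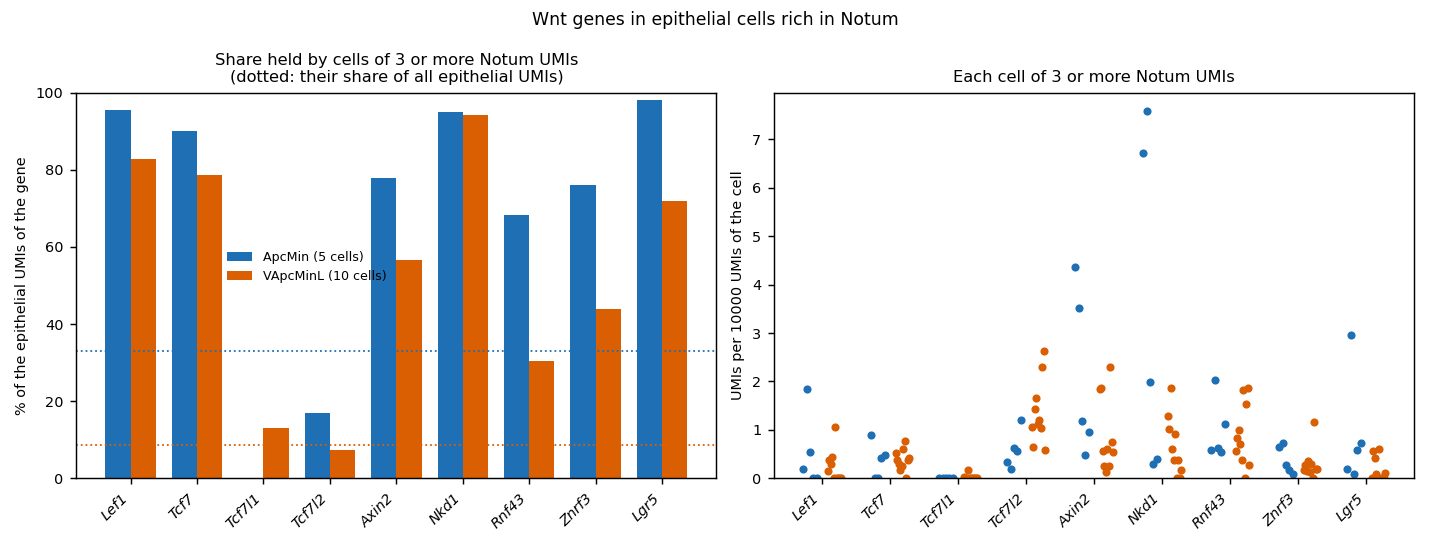
Left, percent of the epithelial UMIs of each gene held by cells of 3 or more Notum UMIs, with dotted lines at their share of all epithelial UMIs (33.0% in ApcMin, blue, and 8.76% in VApcMinL, orange); right, UMIs per 10000 UMIs of each such cell, 1 point per cell. Tcf7l2 stayed below both dotted lines. These cells held 95.5% and 82.8% of the Lef1 UMIs and 95.1% and 94.2% of those of Nkd1.

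Other genes of the pathway, from lists of receptors, signal transduction, Lef/Tcf partners and further targets, were counted in the same way. In the epithelium, where 20.5% of all genes were lower past 2-fold and 4.85% higher, 14 of 19 further targets were past 2-fold, all lower in VApcMinL, with a median log2 ratio of -1.61. Among the 4 with the most UMIs, Jun, Id2 and Cdx2 were not past 2-fold, and Sox9, a progenitor factor, was at 167 and 30.1 CPM. The sums of Prox1 and Cd44 also came largely from the Notum-rich cells, and Notum, which picked those cells, is itself 1 of the 14. The Notum-rich cells held 93.7% and 89.3% of the epithelial UMIs of Prox1 and 94.3% and 75.9% of Cd44. Their part was smaller in VApcMinL for Sox9 (77.3% and 26.2%), Ephb2 (68.8% and 42.5%) and Ephb3 (72.2% and 44.6%). Of 14 receptors, 1 was higher and 4 were lower, shares near those of all genes, and Fzd5, Lrp6, Ryk and Lgr4 were not past 2-fold. Of the 11 genes of signal transduction 1 was lower, and Ctnnb1, which encodes β-catenin, was at 274 and 226 CPM. Of 13 partners, 3 were lower, again near the share of all genes, and Aes, Tle4, Crebbp and Ep300 were not past 2-fold.

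In stromal cells, 5 of 22 further targets were higher and 0 lower, against 8.17% and 2.06% of all genes, with Notum at 2.44 and 8.17 CPM (116 and 346 UMIs) and Sp5 at 17 and 45 UMIs, beside Wif1. The other pair, Cdx1 with 0 and 20 UMIs and Cdx2 with 4 and 22, are intestinal epithelial factors, and the epithelial list in fibroblasts was at 28.2 and 279 CPM, whose part was not tested. In lymphoid cells, 3 of 7 receptors were higher, against 7.88% of all genes, namely Fzd2 (7 and 25 UMIs), Fzd4 (11 and 29) and Lgr4 (9 and 16). Of 10 further targets in lymphoid cells, 3 were higher, namely Sox9 (5 and 51 UMIs), Dkk2 (7 and 14) and Dkk3 (32 and 53). The fibroblast list was also higher, at 1685 and 6637 CPM in T cells or ILCs and 387 and 848 CPM in B cells, and its part was not tested; Fzd2 was at 56.5 and 59.4 CPM and Fzd4 at 95.1 and 88.9 CPM in stromal cells. In endothelial cells, 1 of 12 receptors and 1 of 12 further targets were higher and 2 targets lower, against 5.12% higher and 3.5% lower of all genes. All 11 signal transduction genes stayed within 2-fold in stroma and endothelium.

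The genes whose levels over 23 class and library sums ran most like each of the 9 were found among 14871 genes, as a description with no p. Tcf7 ran with T cell genes, Trbc2 (Pearson r = 0.902), Bcl11b (0.875) and Cd160 (0.850), and Lef1 with Fam169b (0.822), Sh2d2a (0.792) and Ltb (0.779). Tcf7l1 ran with Tshz2 (0.981), Lrp3 (0.975) and Jcad (0.972), and Tcf7l2 with Tmem87b (0.962), Stx12 (0.954) and Ext1 (0.953). Among feedback genes, Axin2 ran with Pard3 (0.917), Tspan3 (0.898) and Laptm4b (0.888), Nkd1 with Adcy6 (0.908), Akap1 (0.908) and Pacsin3 (0.902), and Znrf3 with Tmem176a (0.865), Tmem176b (0.864) and Cnpy2 (0.853). Rnf43 ran with Tns4 (0.927) and Foxa1 (0.913), and Lgr5 with Slco5a1 (0.85), C920021L13Rik (0.80) and Esrp2 (0.79). The sums share library and depth.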

How the data were processed

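The authors deposited unfiltered UMI counts per gene and barcode (10x Genomics 3′ chemistry, mm10/GRCm38). The submitters' processing notes name Cell Ranger 2.1.1 and Seurat 3.1.1, and the file headers name Cell Ranger 3.1.0. Here, barcodes with at least 3000 UMIs and at most 20% mitochondrial UMIs were kept, counts were scaled to 10000 per cell and log-transformed, and Seurat 5.3.0 (R 4.3.3) integrated the libraries with anchors (2000 genes, 30 dimensions). Clusters used 20 principal components and resolution 0.2. A cluster took the name of the class with at least 3 markers among its 10 leading genes, else of the class with the highest marker detection, if at least 3 markers were in 25% of its cells; a cluster was mixed where leading genes and detection named different compartments. This rule was set after the clusters were seen. Names of classes stand for "-like" cells, and own markers gave the same compartment for 96.3%, 81.8%, 98.5% and 94.9% of lymphoid, stromal, endothelial and epithelial cells. Possible doublets were kept in the main values, and Scrublet scores (scanpy 1.11.5) served as an alternative; scDblFinder, used in the study, was not used here. The cells that the study counted were chosen by other filters and are not compared. UMIs were summed per class and library; CPM has exact Poisson intervals, shares Clopper-Pearson intervals and ratios conditional binomial intervals. Zeros were bounded at 3 counts. Past 2-fold was judged for genes with at least 20 UMIs in both libraries together. No p-values were computed. All 9 genes were named throughout, with their 3 most alike genes and up to 4 examples per pathway list by UMIs, and further genes were named after their values were seen. Some of these are not reported here. The genes and lists were chosen with earlier results of these data known. The ratio intervals were tested on counts simulated from the summed ApcMin profile, with no spread between cells. They were thus not tested for sums led by single cells. Thinning was checked on ApcMin cells. Gene positions are from GENCODE on GRCm38. Counting and intervals ran in Python 3.11.15 (scipy 1.17.1, numpy 2.4.6, pandas 2.3.3), plots in matplotlib 3.10.9.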

Additional observations from a re-analysis of the deposited data

How the results depend on the processing

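Of 390 log2 ratios recomputed under the alternatives, 354 stayed within their counting error, 32 moved beyond it and 4 reversed: Znrf3 in epithelial cells became 1.15 with the 1% of cells highest and lowest in detected genes left out, Tcf7l1 in lymphoid cells became -0.19 with cells classed by their own markers, Lgr5 in epithelial cells became 0.0033 without cells of 3 or more Notum UMIs, and Tcf7 in epithelial cells became 0.18 without cells over 100000 UMIs. The last pair of alternatives, and leaving out a mixed cluster of 71 cells, were chosen after seeing the data. The reversed Lgr5 ratio rests on 1 and 7 UMIs, under the minimum of 20 for a call. Epithelial Nkd1 and Axin2 were lower in VApcMinL under all alternatives run. Without Notum-rich cells, Nkd1 had 13 and 6 UMIs, also under that minimum. In the main sums 1 ApcMin cell held 174 of 267 Nkd1 and 113 of 227 Axin2 UMIs. The number of genes with the same highest compartment in both libraries, 3 as reported, was 5 at a minimum of 6000 UMIs, 6 at a mitochondrial limit of 10%, 6 with the 1% trim, 5 without Notum-rich cells and 5 without cells over 100000 UMIs. Among pairs of gene and compartment with at least 20 UMIs, 16 had an interval that left out 1; this was 9 with the trim, 3 after thinning to 3000 UMIs and 9 without Notum-rich cells. The 9 pairs past 2-fold became 5 with the trim and 0 after thinning, where epithelial Axin2, with 8 and 11 UMIs left, fell under the minimum for a call at a log2 ratio of -2.36. Shares of cells with intervals apart numbered 4, the 3 stromal ones and endothelial Tcf7, which has 8 and 7 UMIs and is under the minimum of 20 used in the report. They became 2 without high Scrublet scores and 2 with cells classed by their own markers. Of the 27 most alike genes, 4 were kept with Spearman correlation and 5 with classes of at least 50 cells. No paired analysis was possible because the design has a single library on either side.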

Other observations

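Outside the 4 compartments, Tcf7l2 was found in several cell classes. Myeloid cells (287 in ApcMin and 220 in VApcMinL) had it at 93.7 and 74.2 CPM, in a class whose summed mast cell list was at 14888 and 70.0 CPM, so the class is not alike in both libraries. It was in glial cells (28 and 172) at 76.5 and 73.2 CPM and in mesothelial cells (7 and 34) at 118 and 97.5 CPM. Erythroid cells (1366 and 366) had 9 and 12 Tcf7l2 UMIs. Glial cells also had Axin2 at 45.9 CPM in ApcMin (9 UMIs) and 22.6 CPM in VApcMinL (25 UMIs), with intervals of 21.0 to 87.1 and 14.6 to 33.4. Mesothelial cells had Axin2 at 16.3 and 31.9 CPM (4 and 18 UMIs) and Nkd1 at 16.3 and 23.1 CPM (4 and 13 UMIs). Glial Tcf7 in ApcMin, 12 UMIs, came from 2 cells. Myeloid cells had 4 and 9 UMIs of Nkd1 and 23 and 13 of Znrf3. Pancreatic acinar cells (10 and 16) had 0 and 11 Tcf7l2 UMIs.

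Empty droplets of VApcMinL held more Lef1 than those of ApcMin, at 20.7 CPM (16.0 to 26.4, 66 UMIs) and 6.04 CPM (3.91 to 8.91, 25 UMIs). Tcf7l2 went the same way there, at 65.7 and 42.7 CPM, while Tcf7 was at 11.0 and 11.6 CPM. These droplets are barcodes with at most 100 UMIs. Their RNA was taken as RNA that left its cells, and neither this nor which cells it came from was tested.

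In fibroblasts, 46.3% of ApcMin and 39.2% of VApcMinL cells had a UMI of at least 1 of the 4 factors at equal depth, and 13.0% and 13.5% had a UMI of a feedback gene. In T cells or ILCs these shares were 43.1% and 32.9% for factors and 12.1% and 17.6% for feedback genes.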
